A study of Saccharomyces cerevisiae with 4 samples.

Results

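The 10 genes described here encode the enzymes that take glucose into the top of glycolysis in the budding yeast Saccharomyces cerevisiae and those that set the rate of the next committed step. They were chosen by name, through the reading frame name that each array probe carries, and all 10 were found, with 1 probe each, among 6256 yeast probes. They comprise the glucose-phosphorylating enzymes HXK1, HXK2 and GLK1 with the GLK1 paralog EMI2, the isomerase PGI1, the phosphofructokinase subunits PFK1 and PFK2, and the fructose 2,6-bisphosphate enzymes PFK26, PFK27 and FBP26. The study measured total RNA from a strain labelled BY4741 in which estradiol induces Msn2A6, an allele of the stress activator Msn2. Cultures of 50 ml in rich glucose medium at 30 °C were sampled untreated, at 0 min (2 arrays), or 90 min after 6 nM 17β-estradiol (2 arrays). Both groups have the same strain label, and the labels name no other allele, no promoter for the construct and no control strain. Estradiol was added at an optical density of 0.5 by one protocol text and of about 1 by another. No culture was left untreated for 90 min. Hence estradiol, Msn2A6 and further growth cannot be told apart.

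Glucose enters yeast metabolism when a hexokinase or glucokinase phosphorylates it to glucose 6-phosphate, which the isomerase converts to fructose 6-phosphate. Phosphofructokinase then makes fructose 1,6-bisphosphate, and it is strongly activated by fructose 2,6-bisphosphate, a regulator made by the 6-phosphofructo-2-kinases and removed by a separate phosphatase. In yeast the hexokinase isozymes are known for their opposite dependence on sugar: Hxk2 prevails on glucose and also takes part in glucose repression in the nucleus, while HXK1 and GLK1 are known as glucose-repressed genes.

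Each of the 4 arrays measured 1 sample in 1 colour, and all were on 1 slide with 1 scan date. Between 6151 and 6191 probes per array were well above background. All 80 spots of the 10 genes were well above background, none was saturated and none was marked as an outlier. The MSN2 probe rose 5.54-fold (log2 change 2.47 ± 0.09 SE), or by 1.82 in the authors' deposited values and 1.70 after normexp correction. Whether it reads the induced allele, the native gene or both was not tested. Its signal was 61.9 and 59.3 at 0 min and 331 and 262 at 90 min. The 5 MATa marker probes had signals of 643 to 9913, and the 3 MATalpha marker probes had 17.8 to 108. These signals are background-subtracted, and the raw median background was 20.5 to 21. The marker probes of both mating types were well above background on all 4 arrays. BY4741 is a MATa strain with auxotrophic markers. The probes for those markers, HIS3, LEU2, MET17 and URA3, were well above background on all 4 arrays. For LEU2, MET17 and URA3, which BY4741 lacks, this goes against the strain label. The LEU2 signal was 50840 to 116416 and the URA3 signal 250740 to 276374, and the labels do not say which markers the construct carried. With 2 arrays a group the precision is limited, and p-values measure the spread between these arrays, whose cultures the labels do not describe as separate.

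The comparison of 90 min with 0 min asked how the signals of the glucose-phosphorylating and phosphofructokinase genes differed between the 2 groups. Of the 10 genes, 5 rose (HXK1, EMI2, FBP26, PFK26 and GLK1) and 5 fell (HXK2, PFK27, PFK2, PGI1 and PFK1), by limma with Benjamini-Hochberg adjusted p under 0.05. Over all 6144 genes tested, 30.2% rose and 46.3% fell, so most genes passed and a passed test alone sets no gene apart. The 2 groups did not overlap for any of the 10 genes, and they did not overlap for 88.5% of all genes. At least 2-fold rises were found for HXK1 and EMI2 and at least 2-fold falls for HXK2 and PFK27, against 8.9% of all genes that rose and 3.87% that fell by as much. The median log2 change was -0.25 over the 10 genes and -0.13 over all genes. In RNA from a whole culture, a change in every cell and a larger change in some cells cannot be told apart.

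**Figure D1:**
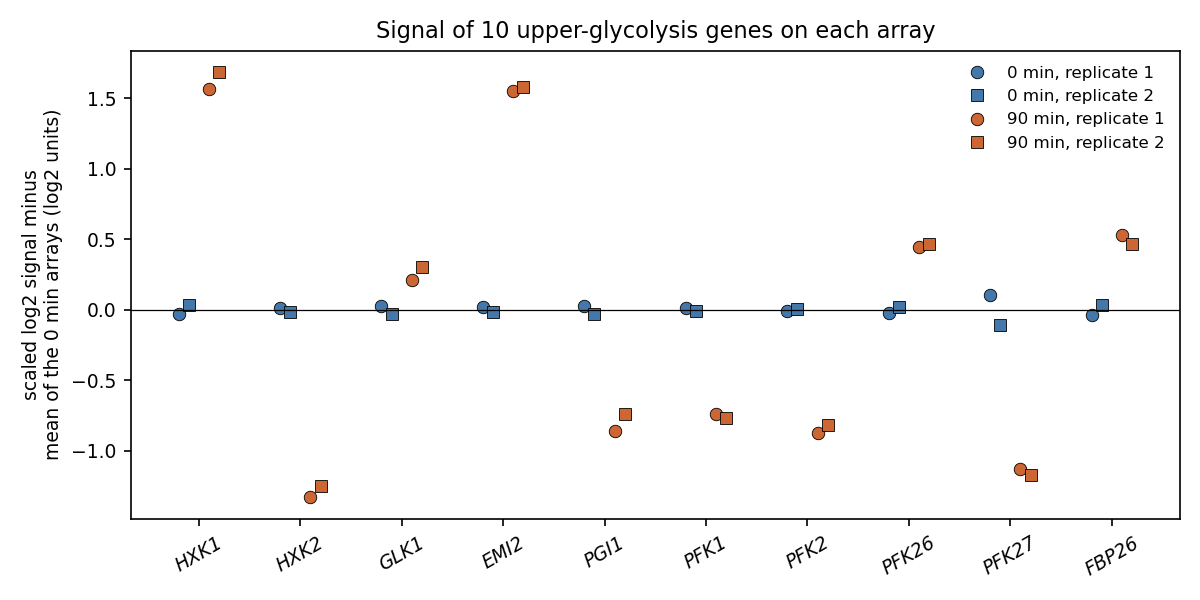
Scaled log2 signal of the 10 genes on each of the 4 arrays, minus the mean of the gene's own 0 min arrays, with circles for replicate 1 and squares for replicate 2. The groups are apart for every gene, with a mean difference between 1.63 for HXK1 and -1.29 for HXK2.

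Levels are log2 signals after subtraction of the array's 75th percentile over yeast spots, and a change is the 90 min mean minus the 0 min mean. HXK1 (YFR053C), the hexokinase gene associated with poor carbon sources, had levels of 3.21 and 3.27 at 0 min and 4.80 and 4.92 at 90 min. Both 90 min arrays were far above both 0 min arrays, and the gap between replicates was at most 0.12. The rise was 3.09-fold, a log2 change of 1.63 ± 0.07 (SE, 95% interval 1.47 to 1.78, limma adjusted p = 2.49e-06). Before scaling, the HXK1 signal was 87753 and 93495 at 0 min and 243872 and 245164 at 90 min, so both 90 min arrays were also the higher ones before scaling.

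HXK2 (YGL253W), the main hexokinase gene on glucose, moved the other way. Its levels were 3.98 and 3.95 at 0 min and 2.64 and 2.72 at 90 min. The 0 min arrays differed by 0.03 and the 90 min arrays by 0.08, and the groups were well apart. The fall was 2.45-fold, a log2 change of -1.29 ± 0.06 (95% interval -1.43 to -1.15, limma adjusted p = 3.81e-06). Its unscaled signal was 150002 and 150097 at 0 min, against 54278 and 53070 at 90 min.

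EMI2 (YDR516C), the paralog of GLK1 known for a role in early meiotic gene induction, had levels of -0.30 and -0.34 at 0 min and 1.22 and 1.26 at 90 min. It rose 2.96-fold, a log2 change of 1.56 ± 0.06 (95% interval 1.43 to 1.70, limma adjusted p = 1.38e-06), and replicates of either group differed by 0.04 or less. GLK1 (YCL040W), the glucokinase gene, had levels of 3.01 and 2.95 at 0 min and 3.19 and 3.28 at 90 min. The groups did not overlap, but the rise was small, 1.2-fold or 0.26 ± 0.06 on the log2 scale (95% interval 0.11 to 0.41, limma adjusted p = 0.00796).

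The GLK1 rise depended on the scaling. Duplicate GLK1 spots differed by 0.117 and 0.259 log2 on the 0 min arrays and by 0.0011 and 0.0675 on the 90 min arrays, so the widest gap was as large as the change. After scaling, the single spots of the groups did not overlap for GLK1 or for any other of the 10 genes. Unscaled GLK1 spots spanned 68426 to 81881 at 0 min and 76858 to 80540 at 90 min, so that they overlapped, whereas for the other 9 genes unscaled spots of the groups did not overlap. With no scaling between arrays the GLK1 change was 0.07 and did not pass (limma adjusted p = 0.548), and with spike-in scaling it was -0.23 (adjusted p = 0.157). A further limit is the reading frame YCL042W, which overlaps GLK1 in the RefSeq gene table and whose name places it on the same strand. YCL042W, chosen here after its value was seen, rose 6.34-fold (log2 change 2.66 ± 0.07), or by 1.38 on the log2 scale after normexp background correction. Which of these transcripts each probe detects was not tested.

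PGI1 (YBR196C), the gene of phosphoglucose isomerase, had levels of 4.88 and 4.82 at 0 min and 3.99 and 4.11 at 90 min. It fell 1.74-fold, a log2 change of -0.80 ± 0.07 (95% interval -0.96 to -0.64, limma adjusted p = 5.33e-05). Its 90 min arrays differed by 0.12, which is well under the change.

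The genes of both phosphofructokinase subunits, whose products form 1 hetero-oligomeric enzyme, fell by similar amounts. PFK1 (YGR240C), of the alpha subunit, had levels of 3.52 and 3.50 at 0 min and 2.77 and 2.74 at 90 min, and its log2 change was -0.76 ± 0.05 (1.69-fold, 95% interval -0.89 to -0.62, limma adjusted p = 3.08e-05). PFK2 (YMR205C), of the beta subunit, had levels of 2.51 and 2.52 at 0 min and 1.64 and 1.70 at 90 min, and its log2 change was -0.85 ± 0.06 (1.8-fold, 95% interval -0.98 to -0.71, limma adjusted p = 2.06e-05). Their intervals overlap, and replicates of each group differed by at most 0.06 for either gene.

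The 3 genes of fructose 2,6-bisphosphate metabolism did not move together. PFK26 (YIL107C), a 6-phosphofructo-2-kinase gene, had levels of -1.29 and -1.25 at 0 min and -0.82 and -0.80 at 90 min. It rose 1.37-fold, a log2 change of 0.46 ± 0.06 (95% interval 0.32 to 0.59, limma adjusted p = 0.000335). The groups were separate, with replicates 0.04 apart at 0 min and 0.02 apart at 90 min.

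PFK27 (YOL136C), the gene of the second such kinase and one known to be induced by glucose, had levels of -2.80 and -3.01 at 0 min and -4.03 and -4.08 at 90 min. Its 0 min arrays differed by 0.21, the widest replicate gap among the 10 genes, and still lay far above both 90 min arrays. The fall was 2.22-fold, a log2 change of -1.15 ± 0.08 (95% interval -1.35 to -0.96, limma adjusted p = 2.73e-05). Its unscaled, background-subtracted signal was 1369 and 1202 at 0 min and 534 and 479 at 90 min. The raw median background was 20.5 to 21.

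FBP26 (YJL155C), the gene of fructose 2,6-bisphosphatase, which removes the product of these kinases, had levels of -0.61 and -0.54 at 0 min and -0.05 and -0.11 at 90 min. It rose 1.41-fold, a log2 change of 0.50 ± 0.06 (95% interval 0.35 to 0.64, limma adjusted p = 0.000326). Replicates differed by 0.07 at 0 min and 0.06 at 90 min, well under the distance between the groups.

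**Figure D2:**
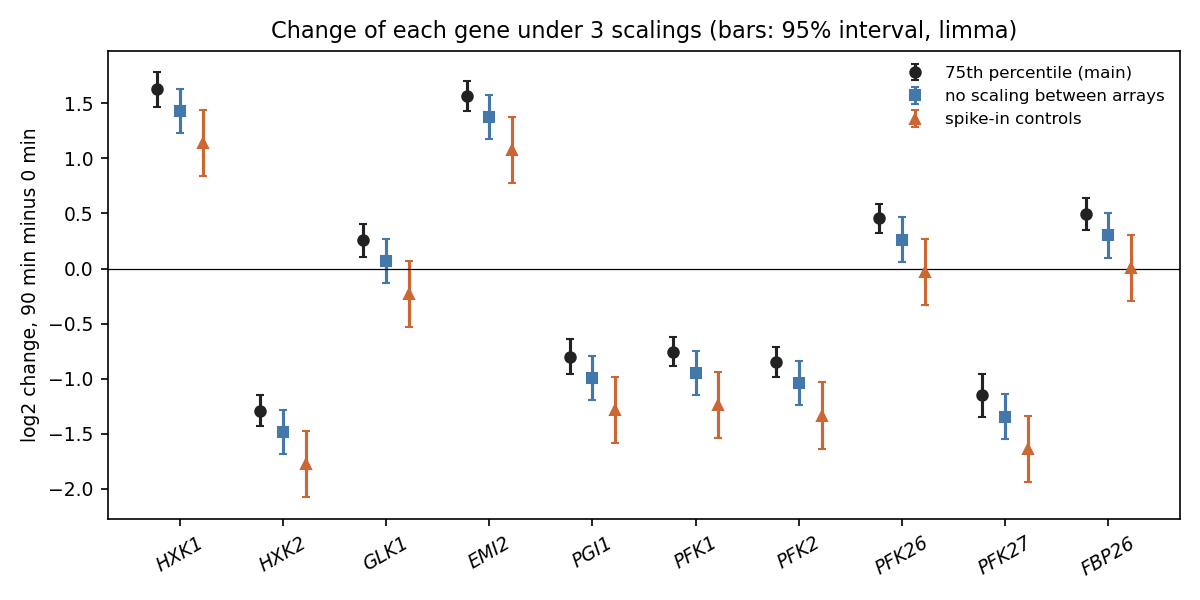
Log2 change of each gene, 90 min minus 0 min, with the array scaled on its 75th percentile (circles), not scaled (squares) or scaled on spike-in controls (triangles); bars are 95% intervals from limma. HXK1, EMI2, HXK2, PGI1, PFK1, PFK2 and PFK27 stay on their side of 0 under all 3 scalings, while GLK1 and PFK26 turn sign with spike-in scaling and FBP26 is at 0.01.

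Among the smaller rises, GLK1 passed neither without scaling nor with spike-in scaling. PFK26 and FBP26 passed without scaling (log2 change 0.26 and 0.30, limma adjusted p = 0.0150 and 0.00597) but not with spike-in scaling. The 5 falls passed in each of these settings. Leaving the arrays unscaled moved every change by -0.19 and spike-in scaling moved every change by -0.49 on the log2 scale. With no scaling 4 of the 10 genes rose and 5 fell, while 21% of all genes rose and 57.5% fell (1288 and 3532 genes), and the median over all genes was -0.32. With spike-in scaling 2 rose, HXK1 (log2 change 1.14) and EMI2 (1.08), and 5 fell, while 11.8% of all genes rose and 69.4% fell (725 and 4263 genes), and the median was -0.62. In that setting PFK26 had a change of -0.03 (adjusted p = 0.856) and FBP26 one of 0.01 (adjusted p = 0.957). Measured against the 75th percentile, spike-in signal was -0.59 and -0.35 at 0 min and 0.00 and -0.04 at 90 min on the log2 scale, and this gap between the 0 min arrays enters the spread of every gene there.

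A gene's place among all genes does not depend on a shift shared by an array. HXK1 stood above 95.8% of the 6144 genes in log2 change and EMI2 above 95.6%. FBP26 stood above 81.9%, PFK26 above 80.8% and GLK1 above 72.9%. At the other end, HXK2 stood above 1.84% and PFK27 above 2.82% of genes, both among the lowest changes measured. PFK2 stood above 6.22%, PGI1 above 7.06% and PFK1 above 8.12%, so the falls of these 3 genes were deeper than those of most genes that fell.

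**Figure D3:**
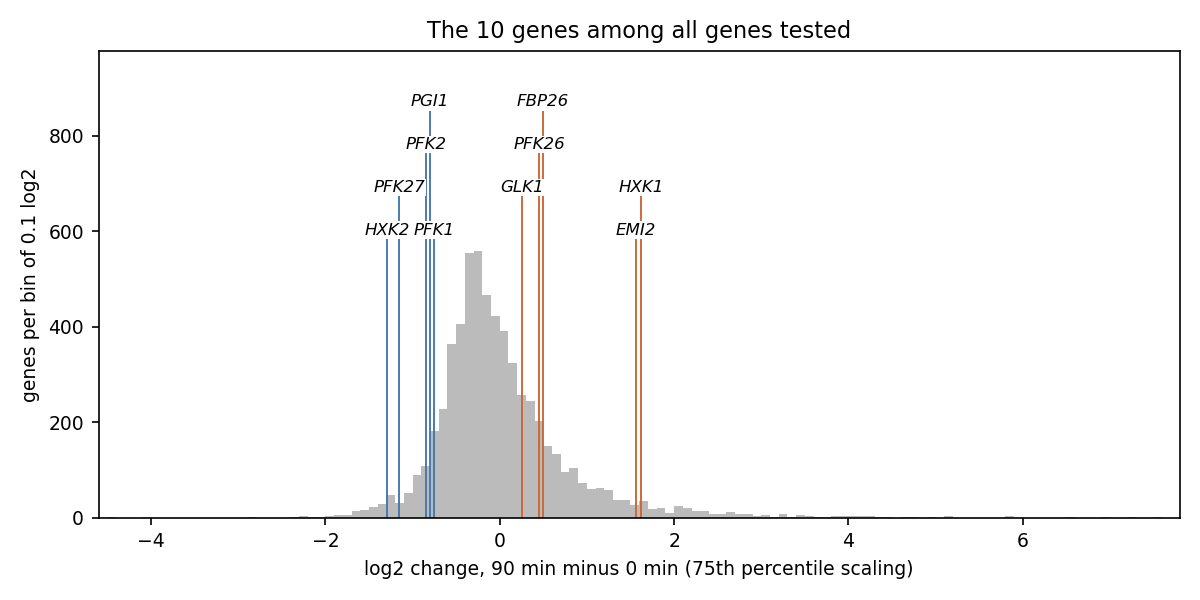
Histogram of the log2 change of all 6144 genes tested in bins of 0.1 (grey), with a line at the change of each of the 10 genes. HXK1 and EMI2 lie in the upper tail, HXK2 and PFK27 in the lower tail, and PGI1, PFK1 and PFK2 lie close together below the main body, which has its median at -0.13.

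Related genes were compared with each other through their ratio within each array, which a shift shared by an array cannot move. Comparisons were made for 5 pairs. With 2 arrays a group the two-sided exact permutation test cannot give a p below 0.333, so none could pass a threshold. The ratio of HXK1 to HXK2 rose 7.55-fold, a change of 2.92 on the log2 scale. Relative to the mean ratio of the 0 min arrays it stood at -0.05 and 0.05 on those arrays and at 2.90 and 2.94 on the 90 min arrays (exact permutation p = 0.333, Benjamini-Hochberg adjusted 0.417). The isozyme genes are similar in sequence, and signal from one at the probe of the other was not tested. Their signals moved in opposite directions.

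The ratio of EMI2 to its paralog GLK1 rose 2.47-fold, by 1.31 on the log2 scale, with values of -0.01 and 0.01 at 0 min and 1.34 and 1.28 at 90 min (exact permutation p = 0.333, adjusted 0.417). The ratio of PFK26 to PFK27 rose 3.05-fold, by 1.61, with values of -0.13 and 0.13 at 0 min and 1.57 and 1.64 at 90 min (exact permutation p = 0.333, adjusted 0.417). In both pairs the shift was many times the distance between replicate arrays.

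The other 2 pairs kept close to their starting ratio. PFK1 over PFK2 stood at 0.02 and -0.02 at 0 min and at 0.13 and 0.05 at 90 min, a change of 0.09 with replicate SDs of 0.02 and 0.06 (exact permutation p = 0.333, adjusted 0.417). PFK26 over FBP26 stood at 0.01 and -0.01 at 0 min and at -0.08 and 0.00 at 90 min, a change of -0.04 with overlapping groups (exact permutation p = 0.667, adjusted 0.667). The replicate spread thus did not separate the changes of a kinase gene and the gene of the opposing phosphatase. This does not show that the changes were equal, and the ratio alone does not show that either gene rose.

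**Figure D4:**
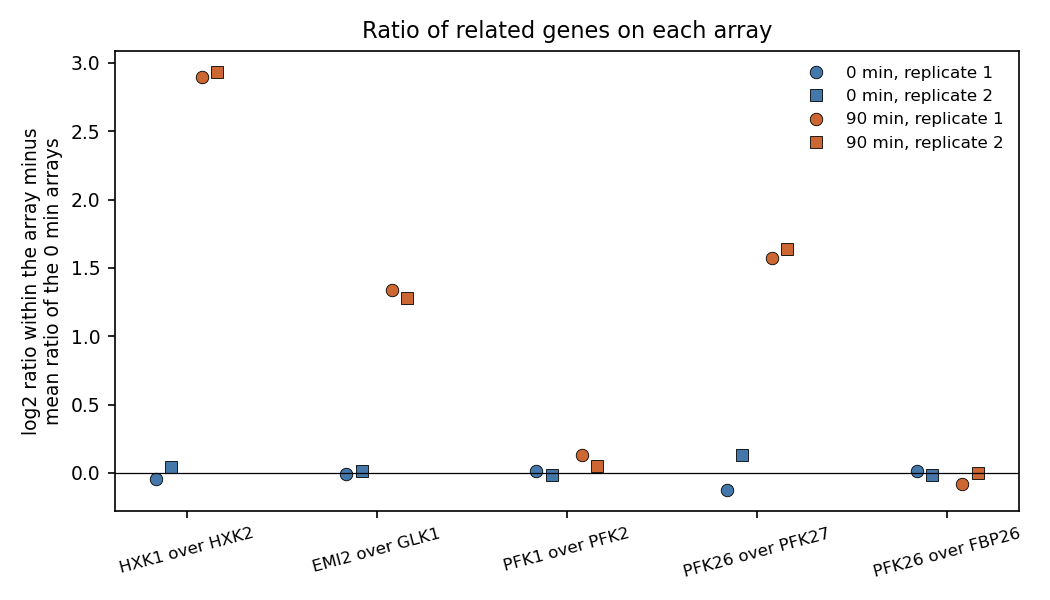
Log2 ratio of the genes of each pair within an array, minus the mean ratio of the 0 min arrays, with circles for replicate 1 and squares for replicate 2. HXK1 over HXK2 stands near 2.9 at 90 min, PFK26 over PFK27 near 1.6 and EMI2 over GLK1 near 1.3, while PFK1 over PFK2 and PFK26 over FBP26 stay within 0.13 of their start.

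Genes of neighbouring steps gave the setting for these changes. The counts of each list below stand beside 30.2% of all genes that rose and 46.3% that fell. At least 2-fold rises were found for 8.9% of all genes. No list was tested as a set. Of 8 genes on the routes from glucose 6-phosphate to storage sugars or into the pentose phosphate pathway, 6 rose, all at least 2-fold. The median log2 change of the 8 was 1.23. PGM2, the main phosphoglucomutase gene, rose by 2.08 ± 0.06, and the glycogen synthase genes GSY2 and GSY1 rose by 1.31 ± 0.06 and 1.27 ± 0.07. With spike-in scaling PGM2 rose by 1.59, GSY2 by 0.82 and GSY1 by 0.78, so GSY2 and GSY1 rose less than 2-fold there. PGM1, the minor phosphoglucomutase gene, fell by 1.22 ± 0.06, and ZWF1, the gene of glucose 6-phosphate dehydrogenase, had a change of 0.10 ± 0.07 and did not pass (limma adjusted p = 0.249), or passed as a fall with spike-in scaling (-0.39).

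Below phosphofructokinase, 8 of 11 genes from aldolase to pyruvate kinase fell and 1 rose, with a median of -0.48. The enolase gene ENO1 fell by 1.67 ± 0.07 and the glyceraldehyde phosphate dehydrogenase gene TDH2 fell by 1.06 ± 0.07, while PYK2, the minor pyruvate kinase gene, rose by 0.67 ± 0.05 (0.19 with spike-in scaling, where it did not pass). The changes of TDH1 (-0.03 ± 0.08) and FBA1 (-0.08 ± 0.07) did not pass, but both passed as falls with spike-in scaling (-0.51 and -0.57) and without scaling (-0.22 and -0.27), and FBA1 also in the deposited table (-0.14). Paralogs such as ENO1 and ENO2 or TDH2 and TDH3 are nearly identical in sequence, which makes the signal of each uncertain.

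In the gluconeogenic bypass, FBP1, the gene of the phosphatase that fructose 2,6-bisphosphate inhibits, rose by 0.47 ± 0.07 and PCK1, the gene of phosphoenolpyruvate carboxykinase, rose by 0.25 ± 0.06. Both changes turned negative with spike-in scaling (-0.01 and -0.24). The pyruvate carboxylase gene PYC2 fell by 0.42 ± 0.06, and its isozyme gene PYC1 had a change of 0.02 ± 0.06 that did not pass, or passed as a fall with spike-in scaling (-0.47). PCK1 did not pass with no scaling. The median of the 4 genes was 0.14.

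The Snf1 kinase, its regulators and the Mig repressors form the machinery of glucose repression in which Hxk2 takes part. Among 13 genes, those of this machinery and the Mediator subunit gene MED8, 7 rose and 3 fell, with a median of 0.22. REG1, which encodes the subunit that targets phosphatase Glc7 to this pathway, rose by 2.21 ± 0.06 and GLC7 itself by 0.69 ± 0.06 (0.20 with spike-in scaling, where it did not pass). MIG2, a glucose-induced repressor gene, fell by 1.20 ± 0.07, and the Snf1-activating kinase genes ELM1 and TOS3 fell by 0.46 ± 0.06 and 0.43 ± 0.10. The TOS3 change was -0.28 without 0 min replicate 1 and -0.58 without 0 min replicate 2. The changes of MIG1 (0.14 ± 0.08), SAK1 (-0.04 ± 0.07) and SIP1 (-0.06 ± 0.06) did not pass. SAK1 and SIP1 passed as falls with spike-in scaling (-0.53 and -0.55) and without scaling (-0.23 and -0.25). MIG1 passed as a rise with the replicate block (limma adjusted p = 0.0499) and without 0 min replicate 2 (0.24), and as a fall with spike-in scaling (-0.34).

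Of 6 genes of protein kinase A and the cAMP phosphodiesterases, 2 rose and 2 fell, with a median of 0.05. Of all genes, 30.2% rose and 46.3% fell. BCY1, the gene of the regulatory subunit that inhibits the kinase, rose by 2.05 ± 0.06. The catalytic subunit gene TPK3 fell by 0.60 ± 0.06 and the phosphodiesterase gene PDE2 by 0.24 ± 0.05, while TPK2 (0.15 ± 0.06) and PDE1 (-0.05 ± 0.05) did not pass. TPK2 passed as a rise under 5 alternatives, with changes from 0.15 to 0.20 (median scaling, quantile normalization, normexp, the deposited table and an intensity trend), and as a fall with spike-in scaling (-0.34). PDE1 passed as a fall with spike-in scaling (-0.53) and without scaling (-0.24).

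Of 4 genes of factors that drive glycolytic gene transcription, 3 fell, with a median of -0.76. TYE7 fell by 1.73 ± 0.10, RAP1 by 0.78 ± 0.06 and GCR1 by 0.75 ± 0.06, and GCR2 had a change of 0.02 ± 0.06 that did not pass, or passed as a fall with spike-in scaling (-0.47). A pair of less studied relatives of the 10 genes both rose. YLR345W, which resembles the 6-phosphofructo-2-kinases in sequence, rose by 1.26 ± 0.06, and YLR446W, which resembles the hexokinases, rose by 0.50 ± 0.07, or 0.02 with spike-in scaling, where it did not pass.

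**Figure D5:**
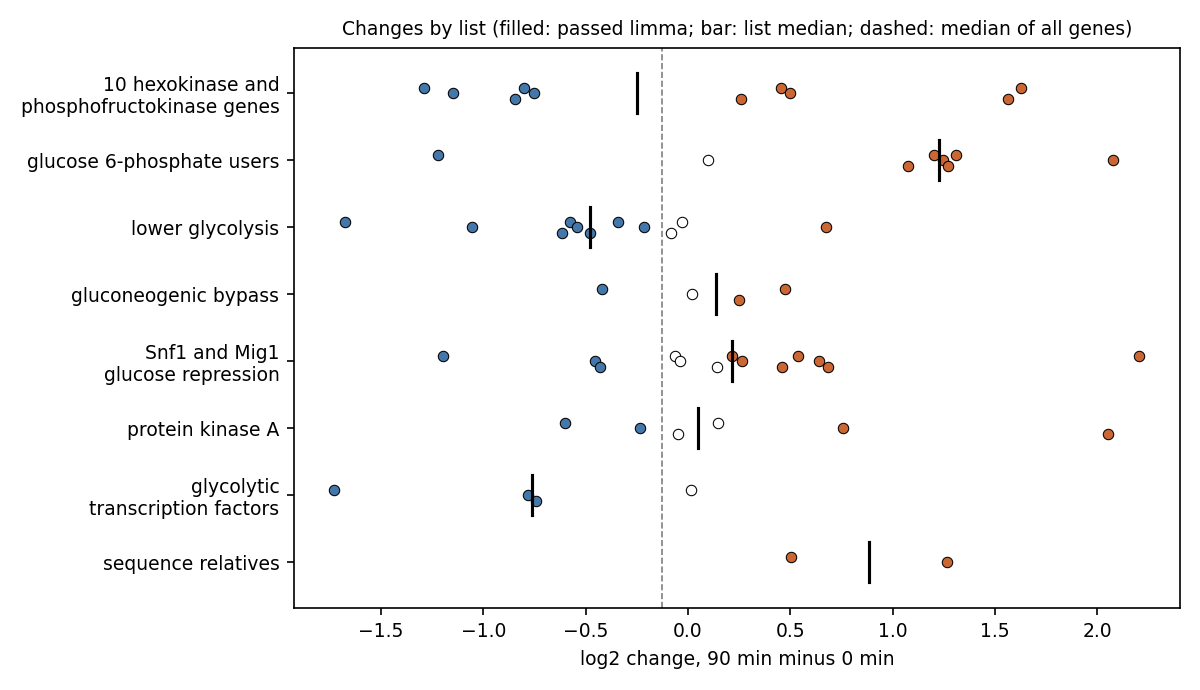
Log2 change of each gene of the 8 lists, with orange for genes that rose, blue for genes that fell and white for those that did not pass limma at adjusted p under 0.05; black bars are list medians and the dashed line is the median of all genes at -0.13. The 10 hexokinase and phosphofructokinase genes split on both sides. Genes on routes from glucose 6-phosphate (labelled users) lie mostly to the right (median 1.23), and lower glycolysis mostly to the left (median -0.48).

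The profile of a gene over the 4 arrays was compared with all others by the root mean square distance after centring each gene on its mean. The 3 profiles closest to HXK1 were those of HXT10 (0.012 log2, change 1.64 ± 0.06), TMA17 (0.013, change 1.60 ± 0.07) and XYL2 (0.016, change 1.63 ± 0.07). For HXK2 they were HMG1 (0.0094, change -1.31 ± 0.06), ADH5 (0.011, change -1.30 ± 0.06) and ASN1 (0.014, change -1.30 ± 0.06). With 4 arrays in 2 groups such a likeness is mostly a similar change, and 63 genes lay within 0.1 of HXK1 and 105 within 0.1 of HXK2.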

How the data were processed

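Per the file headers, the scanner output came from Agilent Feature Extraction 10.7.3.1. Its processed intensity, already background-subtracted, was the starting point here. The deposited value table, used as an alternative, holds log2 values, and limma is the tool named in the submitters' processing notes. Here the log2 intensity was reduced by the array's own 75th percentile over yeast spots. Duplicate spots were averaged after outlier spots had been removed. A probe was kept (6175 of 6256) if it was well above background throughout 1 group or more, and a gene was represented by its brightest probe. The files carry reading frame names only, and 5748 probes were named by locus tag and 17 by accession in the RefSeq gene table. The array design used sacCer2, so no positions are given. The test between groups was limma 3.58.1, run in R 4.3.3 (two-sided, Benjamini-Hochberg over all probes, adjusted p under 0.05). The pipeline was tested on simulated data. Figures were drawn with matplotlib 3.10.9.

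The 10 genes and the lists were chosen with earlier results of these data known. Named genes are the 10, MSN2, MSN4, the strain markers, up to 3 passing genes per list with the largest change, and the 3 nearest profiles to HXK1 and HXK2. Other genes were named after their values were seen, where a count was 5 or fewer or a frame lay next to one of the 10 genes. A planned count of promoter motifs was not run, because no promoter sequence was used here. The result of 1 listed gene is not reported here.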

Additional observations from a re-analysis of the deposited data

How the results depend on the processing

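Over 18 alternatives, 176 of 180 values of the 10 genes kept their direction and their side of the threshold. The exceptions were GLK1 with no scaling (0.0655), and GLK1 (-0.23), PFK26 (-0.0307) and FBP26 (0.00899) with spike-in scaling. In that setting 2 of the 10 genes and 725 of all genes rose, and 9 genes of the neighbouring pathway lists rose and 28 fell, against 20 and 18. That scaling also turned MSN4 (-0.0123, from 0.47), URA3 (-0.18), FBP1 (-0.0122), PCK1 (-0.24), PYC1 (-0.47), ZWF1 (-0.39), MIG1 (-0.34), TPK2 (-0.34) and GCR2 (-0.47). No scaling turned PYC1 (-0.17), ZWF1 (-0.0941), MIG1 (-0.0507), TPK2 (-0.0456) and GCR2 (-0.18). By construction these scalings shift all genes alike. Other signs turned for genes that did not pass, in either setting: TDH1 (0.0170) and SAK1 (0.00505) with median scaling, PYC1 (-0.0394), SAK1 (0.00315) and SIP1 (0.00653) with quantile normalization, GCR2 (-0.00409) with normexp, and PYC1 (-0.11) in the deposited table. The cause was not tested. Leaving out single arrays gave -0.12 to 0.0673 for TDH1, -0.00968 to 0.0423 for GCR2, -0.00441 to 0.0468 for PYC1, -0.11 to 0.0314 for SAK1 and -0.0804 to 0.00099 for PFK26 over FBP26. With the replicate number as a block, 1964 genes rose and 2998 fell, and no call among the 10 genes changed. Deviations of same-numbered arrays correlated at 0.20 over genes, which with 2 numbers does not settle whether they pair cultures. Normexp was run on median spot signal. MSN2 is dim, and its log2 change was 1.70 with normexp.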

Other observations

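The frames next to the 10 genes in the RefSeq gene table were looked up after the results above were known, as a description of the surroundings. Of 20 adjacent frames, 18 were measured, of which 3 rose, 7 fell and 8 did not pass. Over all genes tested, 30.2% rose and 46.3% fell. Among the adjacent frames that passed, 7 moved in the direction of their neighbour and 3 against it, a split that was not tested. The widest contrast was at PFK2, where the adjacent frame YMR206W, whose name places it on the opposite strand, rose 15.2-fold (log2 change 3.92 ± 0.07, or 3.22 with normexp background correction) while PFK2 fell 1.8-fold. PEX21, a peroxisomal import receptor gene next to PFK1, fell by 1.40 ± 0.06 on the log2 scale, and PFK1 fell by 0.76. Neither neighbour of EMI2 passed, with changes of -0.0022 for SLF1 and 0.02 for GRH1 beside its own 1.56.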
